A study of Mus musculus with 24 samples.

Results

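Granzymes and the other proteins of the cytotoxic granule were followed in in vitro differentiated T helper cells of C57BL/6 mice. The 7 genes were chosen by name, and were Gzma, Gzmb, Gzmc, Gzmk, Prf1, Nkg7 and Serpinb9. They were read by 8 probes on each of 24 dual-colour Agilent arrays, out of 55681 probes and 20028 named genes. On every array the Cy3 channel held RNA of 1 effector condition, and the Cy5 channel held a reference of naive CD4+ CD62L+ CD25- CD44lo T cells. Th1 cells were on 14 arrays and Th2 cells on 10. The cells had received the vehicle DMSO, JQ1 at 50 or 500 nM for 6 hr, or Flavopiridol at 1 or 10 µM for 6 hr, and each treatment had 1 unstimulated and 1 reactivated array. A 24 hr time point existed for Th1 cells under DMSO and under 500 nM JQ1. JQ1 displaces BET proteins from acetylated chromatin, and Flavopiridol inhibits the kinase of P-TEFb, which releases paused RNA polymerase II into elongation. The titles and source names of the Th2 DMSO arrays gave different times, 24 and 6 hr, so their time is unclear wherever they served as control. No condition had a second array, so the tests rest on effects that recurred over cell contexts, and separate cultures or animals behind the arrays are not stated.

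Cytotoxic lymphocytes kill by releasing granules at the contact with a target cell. Perforin, the product of Prf1, forms pores in the target membrane and lets granzymes, serine proteases that cleave proteins inside the cell, enter it. Granzyme B, from Gzmb, cuts after aspartate and starts caspase-dependent death, whereas granzyme A, from Gzma, is a tryptase. Gzmc belongs to the mouse gene cluster around Gzmb, and Gzmk lies beside Gzma. Nkg7 encodes a membrane protein of the granule needed for efficient release, and Serpinb9 encodes a serpin that inactivates granzyme B and protects the cell that carries it. These genes are best known in CD8 T cells and natural killer (NK) cells, and CD4 T helper cells, Th1 cells above all, can express some of them.

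Gzma, Gzmb and Gzmc were called in the comparisons of both drugs with DMSO, whereas Nkg7 and Serpinb9, the inhibitor, were called with JQ1 alone. The promoters of these granzymes and of Serpinb9 are shown. Each is the 250 bases before the RefSeq start of the gene in GRCm38.p6, 5′ to 3′ on the strand of the gene, with capitals for the motifs T-box (GGTGTGA), Runx (TGTGGT) and AP-1 (TGANTCA) on either strand.
Gzma promoter, chr13:113100982-113101231 minus strand: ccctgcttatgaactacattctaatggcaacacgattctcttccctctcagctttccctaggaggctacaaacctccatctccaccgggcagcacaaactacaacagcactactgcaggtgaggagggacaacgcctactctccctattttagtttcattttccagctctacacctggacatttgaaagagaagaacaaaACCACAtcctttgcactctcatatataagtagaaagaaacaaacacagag
Gzmb promoter, chr14:56262335-56262584 minus strand: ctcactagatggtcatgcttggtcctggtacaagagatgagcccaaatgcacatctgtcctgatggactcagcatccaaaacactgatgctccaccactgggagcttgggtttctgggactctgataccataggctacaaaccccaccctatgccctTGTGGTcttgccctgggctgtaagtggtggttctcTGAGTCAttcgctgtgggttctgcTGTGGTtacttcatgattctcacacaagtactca
Gzmc promoter, chr14:56234658-56234907 minus strand: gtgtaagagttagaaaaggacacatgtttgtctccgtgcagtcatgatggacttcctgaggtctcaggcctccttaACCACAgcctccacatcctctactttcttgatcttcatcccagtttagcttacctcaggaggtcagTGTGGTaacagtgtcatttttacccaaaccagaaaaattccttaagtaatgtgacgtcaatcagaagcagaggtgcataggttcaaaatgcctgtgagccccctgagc
Serpinb9 promoter, chr13:33004291-33004540 plus strand: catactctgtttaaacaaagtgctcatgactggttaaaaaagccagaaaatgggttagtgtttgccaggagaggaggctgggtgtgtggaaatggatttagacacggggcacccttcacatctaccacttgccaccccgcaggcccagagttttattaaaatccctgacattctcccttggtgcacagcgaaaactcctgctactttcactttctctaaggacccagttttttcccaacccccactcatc
The Runx letters occurred in 5 of the 7 promoters, those of Gzma, Gzmb, Gzmc, Prf1 and Nkg7, and in 14% of all promoters of the same length in the RefSeq table. Gzmb held them at 2 positions, with the single AP-1 match of the 7 genes between them. The T-box letters were found for Gzmk and Nkg7 and in 3.33% of all promoters. The NFAT core GGAAA was found in 3 of the 7 promoters against 55.6% of all, and a loose NF-kB pattern in 4 of 7 against 45.8%. In Gzmb the NF-kB letters overlapped a Runx match, and a match describes letters only.

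Levels are given as the log2 ratio of the effector sample over the naive reference on the same array, so that 0 equals naive cells. A gene counted as well above background by the scanner software's flag. By it, all 7 genes were measured in the sample channel on all 24 arrays, except Serpinb9 on the reactivated Th2 array with 10 µM Flavopiridol. In the reference channel Gzmb was above background on 23 of 24 arrays, not on the unstimulated Th2 array with 500 nM JQ1, so its ratio there has a reference that is only a bound. All 7 passed the filter of every fit. Over all probes, 35.5% to 41.5% passed this flag in Cy3 on the 8 Flavopiridol arrays and 43.8% to 52.0% on the others. All 5 T cell markers were well above background on every DMSO array. The mean log2 ratio of 5 Th1 markers was 4.03 to 4.34 on the Th1 DMSO arrays and -0.49 to 2.20 on the Th2 DMSO arrays. The defining NK cell genes Ncr1 and Klrb1c and the receptor Fcgr3 were not well above background on any DMSO array. On the 4 Th1 DMSO arrays 3 to 4 of 8 NK cell markers were well above background, among them Klrd1 and Cd244a, and the log2 summed Cy3 signal of the list was 11.18 to 11.53. On the 2 Th2 DMSO arrays there were 1 to 2 of 8, with a summed signal of 10.59 to 10.79. Cd8a was well above background on all 4 Th1 DMSO arrays, at log2 ratios of 0.86 to 1.87, and on neither Th2 DMSO array, and Cd8b1 was below the naive level on all 6. Fewer cells of a type and less RNA per cell cannot be told apart in such bulk samples.

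The reference channel bears on every ratio of Gzmb. Nominally the same naive RNA was on every array, yet Cy5 of the Gzmb probe ran from 5.88 to 11.32 on the log2 scale, a range of 5.44 against a median range of 0.37 over 8632 genes. It followed the sample channel, with r = 0.958 over 24 arrays. The dimmer of 2 Nkg7 probes had a Cy5 range of 4.02. The brighter Nkg7 probe, which represents the gene here, had a range of 1.20, Gzma had 1.26, and the other 4 genes had 0.40 to 0.84. The ranges of Gzma, this Nkg7 probe and Gzmk exceeded those of 98.6%, 98.3% and 94.3% of genes. Their Cy5 also followed Cy3, with r = 0.89, 0.706 and 0.707. For Prf1 r was 0.819, for Serpinb9 0.516 and for Gzmc -0.0906. In the comparisons of 2 conditions given here, the ratios of Gzmb differed less than its sample channel did, and both are given. For differences between effects this did not always hold. The Cy3 values alone came from the loess fit, after the mean log2 intensity of both channels was quantile normalized across arrays. They therefore still depend in part on Cy5.

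**Figure D1:**
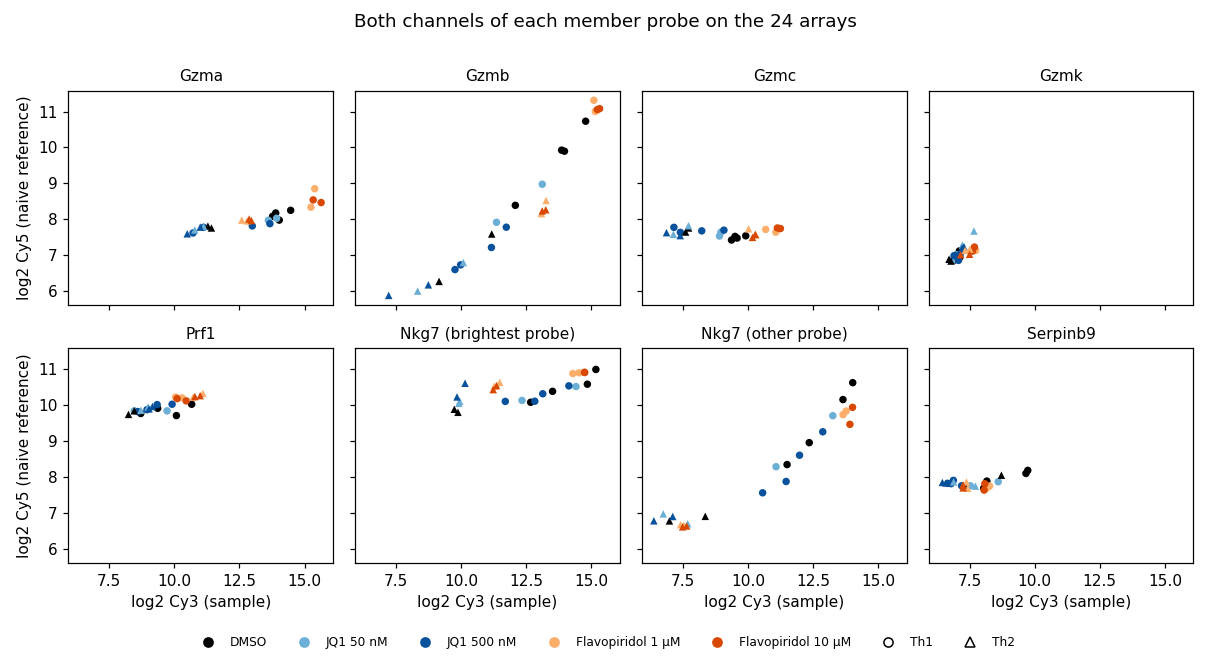
Sample channel (Cy3, x axis) against naive reference channel (Cy5, y axis), both log2 intensity, for the 8 probes of the 7 genes, with 1 point per array, circles for Th1 and triangles for Th2. The points of Gzmb and of the second Nkg7 probe climb from the lower left to the upper right, with Cy5 ranges of 5.44 and 4.02, while those of Gzmc stay within 0.40 in Cy5.

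The first question was which granule genes effector cells carried above naive cells. Without drug, Gzma and Gzmb were higher than in naive cells on all 6 arrays. In the authors' deposited log2 ratios Gzmb was close to the naive level on 1 of them, at 0.05 in unstimulated Th2 cells. Gzma was at 6.22 and 6.05 on the unstimulated and reactivated 6 hr Th1 arrays, 5.72 and 5.69 on those of 24 hr, and 3.48 and 3.67 on the Th2 arrays. Th1 and Th2 arrays did not overlap, and both lay far above 0. Over the 6 arrays the mean was 5.14 ± 0.43 (SE, n = 6, adjusted p = 0.000104). Gzmb was at 3.69 and 4.07 in 6 hr Th1 cells, 3.93 and 4.05 in 24 hr Th1 cells, and 2.89 and 3.59 in Th2 cells. The mean was 3.70 ± 0.17 (SE, n = 6, adjusted p = 6.41e-06). This SE rests on a reference that moved with the sample. Cy3 of Gzmb was at 12.081 to 14.779 on the Th1 and 9.155 to 11.175 on the Th2 DMSO arrays, and Cy5 at 8.387 to 10.732 and 6.266 to 7.588. The naive cells enter this comparison only as the reference, so their spread is in none of its p-values.

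Gzmc and Nkg7 were above naive cells in Th1 cells. Gzmc was at 1.95 to 2.38 on the 4 Th1 arrays and at -0.03 on both Th2 arrays. Nkg7 was at 2.59 and 3.12 in unstimulated and 4.26 and 4.17 in reactivated Th1 cells, and at -0.15 and 0.08 in Th2 cells. Their means over 6 arrays were 1.39 ± 0.39 (SE, adjusted p = 0.0186) and 2.35 ± 0.68 (SE, adjusted p = 0.0209). Neither call held without a Th1 array. Without any one of the 4 Th1 DMSO arrays, Gzmc was at 1.20 to 1.28 (adjusted p 0.052 to 0.0546) and Nkg7 at 1.96 to 2.30 (adjusted p 0.0519 to 0.0582).

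Prf1, Gzmk and Serpinb9 were not called. Prf1 was at -1.06 and -0.55 in unstimulated and 0.37 and 0.64 in reactivated Th1 cells, and at -1.50 and -1.38 in Th2 cells, so that its sign differed between arrays. Gzmk stayed between -0.17 and 0.19 on all 6 arrays, with a mean of 0.01 (95% interval -0.19 to 0.20). Serpinb9 had a mean of 0.67 (adjusted p = 0.0715), which passed the threshold without the unstimulated Th2 array (0.89, adjusted p = 0.0202). In all, 4 of 7 genes were called higher and none lower, where 60% of 12539 genes tested were called and 34% were called higher. In the same comparison 2 of 4 B cell markers and the 1 mast cell marker tested were called higher, while all 5 T cell markers, 1 of 3 tested NK cell markers and both tested myeloid markers were called lower. Of the CD8 T cell markers Cd8a was called higher, at 0.94, and Cd8b1 lower, at -1.25. The part of such cells was not tested.

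**Figure D2:**
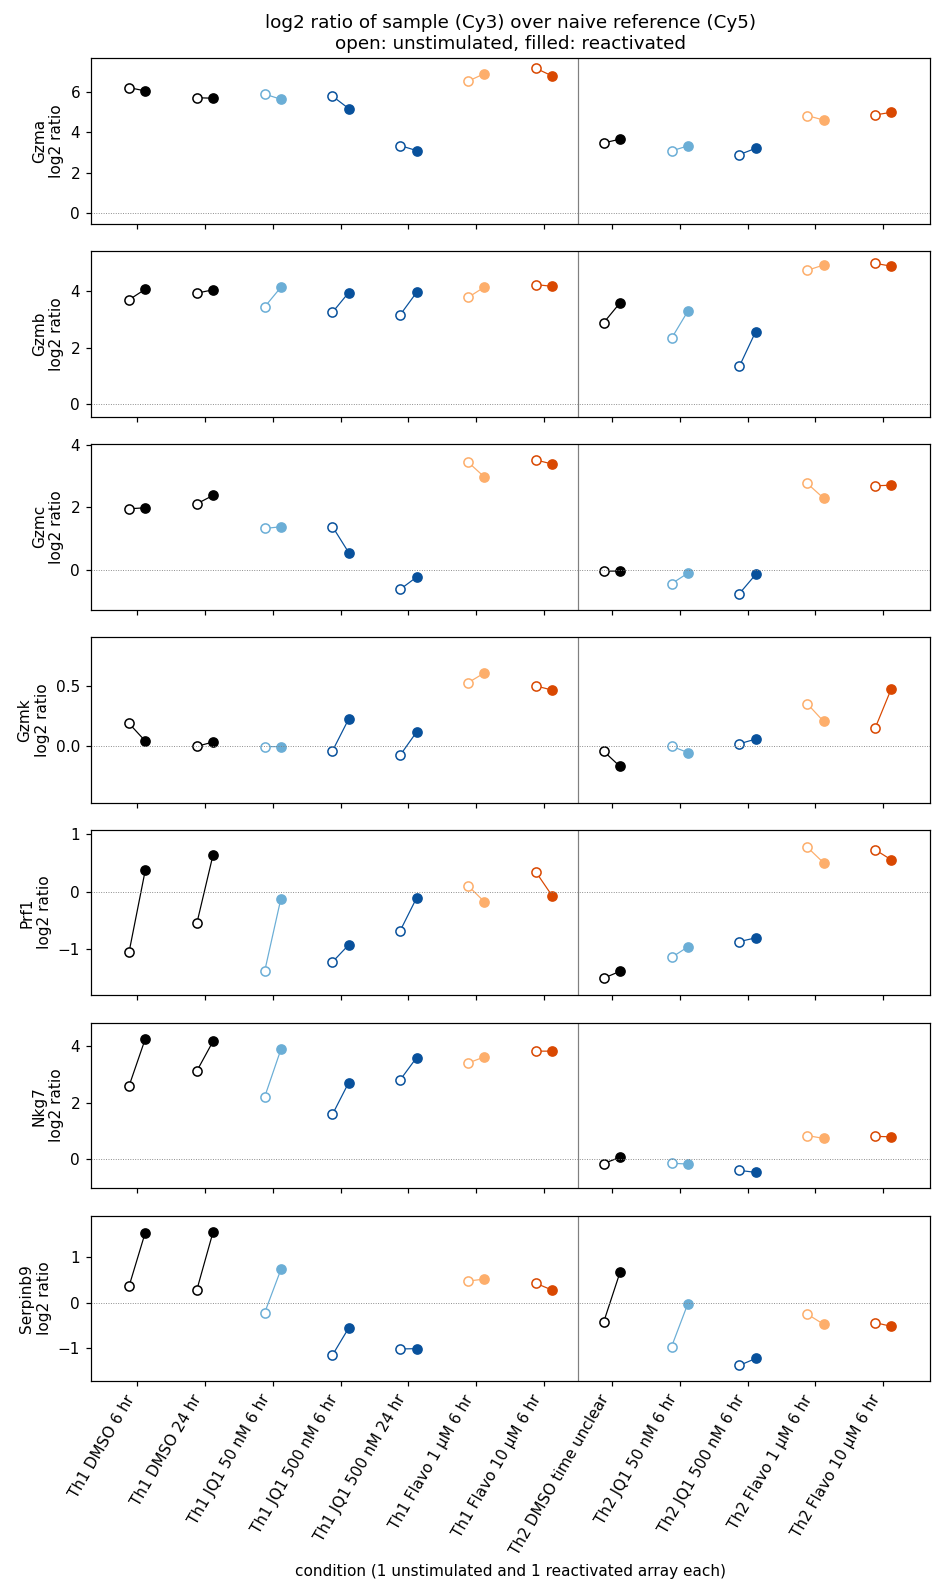
Log2 ratio of sample over naive reference (y axis, a scale of its own for each gene) on the 24 arrays, by condition (x axis), with open points for unstimulated and filled points for reactivated cells, joined within a condition, and the dotted line at the naive level. Th1 conditions are left of the grey line and Th2 conditions right of it, and Gzma lies between 2.90 and 7.17 throughout while Gzmk stays between -0.17 and 0.61.

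The next question was how reactivation changed these genes without drug. Serpinb9, Nkg7 and Prf1 rose. Serpinb9 went from 0.36 to 1.55 and from 0.28 to 1.57 in the 6 hr and 24 hr Th1 pairs and from -0.42 to 0.68 in the Th2 pair. The groups did not overlap, and the mean difference was 1.19 ± 0.12 (SE, 3 pairs, adjusted p = 0.000647). Nkg7 rose by a mean of 0.98 ± 0.26 (SE, adjusted p = 0.0213), with 1.67 and 1.05 in the Th1 pairs and 0.22 in the Th2 pair. Its second probe was at 0.53 by ratio (adjusted p = 0.118), and was called in the sample channel, at 1.73. Prf1 rose by a mean of 0.91 ± 0.26 (SE, adjusted p = 0.0247), with 1.42 and 1.19 in the Th1 pairs and 0.12 in the Th2 pair. The 95% intervals of these 2 genes spanned 0, at -0.15 to 2.12 for Nkg7 and -0.19 to 2.01 for Prf1. Intervals here use the residual degrees of freedom alone, 2 in this fit, and are wider than limma's test, which also borrows from all genes. The calls of Nkg7 and Prf1 were lost without either array of a Th1 pair. Without the 6 hr Th1 pair, the differences were 0.64 (adjusted p 0.085 to 0.0869) and 0.66 (adjusted p 0.118 to 0.12), and without the 24 hr pair 0.95 (adjusted p 0.0727 to 0.0743) and 0.77 (adjusted p 0.104 to 0.106).

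The granzymes were not called by ratio. Gzma, already high in unstimulated cells, differed by 0.00 ± 0.13 (SE, 95% interval -0.57 to 0.57), Gzmc by 0.10 ± 0.13 and Gzmk by -0.08 ± 0.12. Gzmb differed by 0.40 ± 0.15 (SE, adjusted p = 0.0697) as a ratio. In the sample channel alone it rose by 1.88, 0.92 and 2.02 in the 6 hr Th1, 24 hr Th1 and Th2 pairs, a mean of 1.61 ± 0.24 that was called. Thus 3 of 7 genes were called higher by ratio and 4 in the sample channel, where 51% of 12539 genes were called on either scale, with 21.9% called higher by ratio and 22.1% in the sample channel. Both arrays of each pair were on 1 slide. Markers moved with reactivation too. All 5 naive T cell markers, 4 of 5 T cell markers and 1 of 3 tested NK cell markers were lower, while 1 of 4 B cell markers and the 1 mast cell marker tested were higher, and their part was not tested.

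The death ligands, a second route of killing, rose as well, with 3 of 4 called higher. Over all genes 29% were called lower on reactivation, beside the 21.9% called higher. Tnf differed by 3.82, Fasl by 2.48 and Lta by 2.45. Among 15 genes of granule cargo, processing and inhibitors, 14 were tested, 5 rose and 3 fell. Serpinb6b, a serpin of the same family as Serpinb9, rose by 3.88 and Srgn, the proteoglycan that packs granzymes, by 2.21, while Ctsd, a lysosomal protease, fell by 1.39 and Serpinb6a by 1.29. Of 12 genes of granule release, 1 rose and 7 fell. Stx11, a syntaxin of granule fusion, rose by 1.53, while Unc13d, which primes granules for release, fell by 1.56 and the Rab27a effectors Sytl2 and Sytl1 fell by 1.89 and 1.61.

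The rise of Nkg7 differed between the cell types. Over 8 pairs with DMSO or JQ1, reactivation changed Nkg7 by 0.78 to 1.68 in the 5 Th1 pairs and by -0.07 to 0.22 in the 3 Th2 pairs, which did not overlap. The difference of 1.22 ± 0.22 (SE, adjusted p = 0.0133) was called, and 5.28% of 13133 genes were. It was not called without either Th2 array with 50 nM JQ1 (1.19, adjusted p 0.0901 to 0.0913). Nor was it called with scaling on spike-in RNA, the scanner software's log ratio or the mean of all probes. The other Nkg7 probe, whose reference channel moved, gave -0.64 as a ratio and 0.54 in the sample channel, neither of them called. For Prf1 the difference was 0.83 (adjusted p = 0.0859), which was called without either Th1 array with 500 nM JQ1 for 6 hr (0.99, adjusted p 0.0277 to 0.0278). For Gzma it was -0.51 (adjusted p = 0.0722), called without either 24 hr Th1 DMSO array (-0.57, adjusted p 0.0495 to 0.0496) and in the sample channel (-0.71), where 5.75% of genes were called.

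The design next allowed Th1 and Th2 cells to be set against each other under the same treatment, in 10 pairs of arrays at DMSO or 6 hr of drug. Nkg7, Gzma, Gzmc and Serpinb9 were higher in Th1 cells in 10 of 10 pairs. Nkg7 was higher by 2.99 ± 0.19 (SE, adjusted p = 5.42e-07), with pairs from 1.98 to 4.18. Its second probe gave 3.01. Gzma was higher by 2.32 ± 0.12 (SE, adjusted p = 8.07e-08), from 1.70 to 2.89. Gzmc was higher by 1.29 ± 0.18 (SE, adjusted p = 0.000208), from 0.67 to 2.13. Serpinb9 was higher by 0.75 ± 0.07 (SE, adjusted p = 1.2e-05), from 0.23 to 1.00. These 4 of 7 genes compare with 35.6% of 13144 genes called and 17% called higher in Th1 cells.

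The 2 DMSO pairs were on 1 slide and gave values of the same sign. There Th1 exceeded Th2 cells by 2.74 and 2.38 for Gzma, 1.99 and 2.02 for Gzmc, 2.73 and 4.18 for Nkg7, and 0.78 and 0.88 for Serpinb9 in unstimulated and reactivated cells. In the other 8 pairs the arrays were on different slides. Each of the 4 calls held without any single array.

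For Gzmb the ratio and the sample channel differed. As a ratio, Th1 and Th2 cells differed by 0.33 ± 0.29 (SE, adjusted p = 0.383), with 6 of 10 pairs higher in Th1. On the 8 Flavopiridol arrays alone the ratio was lower in Th1 cells, by -0.80. In the sample channel Gzmb was higher in Th1 cells by 2.50 ± 0.13 (SE) over the 10 pairs, which was called, as were 37% of genes on that scale. In the authors' deposited log2 ratios, Gzmb was at 3.20 and 5.04 on the 6 hr Th1 DMSO arrays and at the 0.05 given above and 2.24 on the Th2 DMSO arrays. Gzmk (0.15, adjusted p = 0.0696) and Prf1 (0.00, adjusted p = 0.99) were not called, and Prf1 was higher in Th2 cells in 7 of 10 pairs but higher in Th1 cells by 1.75 in the reactivated DMSO pair.

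Regulators and markers moved with this difference, in a comparison that called 17% of all genes higher in Th1 cells and 18.5% lower. Of 12 transcription factors of the cytotoxic programme 8 were higher in Th1 cells and 2 lower. Hopx was higher by 3.15, Tbx21, the gene of T-bet, by 3.14, Bhlhe40 by 1.38 and Stat4 by 1.02. Of the 8 NK cell markers 3 were tested. Of these Klrd1 was higher by 3.05 and Klra8 by 0.84, and Cd244a was at -0.58, called lower. Cd8a was higher by 1.35 and Cd8b1 by 0.35. Of 4 B cell markers 3 were lower in Th1 cells, among them Ms4a1 at -2.24, as were 2 of 4 tested myeloid markers. Kit, the 1 mast cell marker tested, was higher by 0.95. The part of such cells in the difference was not tested. Of the other granzymes, Gzmm was higher by 0.81 and Gzme by 0.69, and Gzmd, Gzmf, Gzmg and Gzmn did not pass the filter. Among cargo and processing genes 7 were higher and 4 lower, with Ctsw higher by 2.36, Serpinb1a by 1.91, Serpinb6a by 1.33 and Ctsh at -1.85.

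JQ1 was compared with DMSO to ask which genes depended on BET proteins. At 500 nM for 6 hr, 5 of 7 genes fell and none rose, where 47.6% of 12919 genes were called and 29.9% were called lower. The Th1 arrays of both were on 1 slide, whereas the Th2 arrays with JQ1 were on another slide than those with DMSO, so in Th2 cells drug and slide cannot be told apart. By ratio, Serpinb9 had the largest fall of the 7. In unstimulated and reactivated Th1 cells its ratio was 0.36 and 1.55 with DMSO and -1.16 and -0.56 with JQ1, and in Th2 cells it was -0.42 and 0.68 with DMSO and -1.39 and -1.23 with JQ1. All 4 JQ1 arrays lay below all 4 DMSO arrays, and the mean difference was -1.63 ± 0.16 (SE, 4 contexts, adjusted p = 2.2e-05). Only 0.488% of genes tested had a lower value.

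Nkg7 fell by 0.83 ± 0.17 (SE, adjusted p = 0.00264), Gzmb by 0.78 ± 0.18 (SE, adjusted p = 0.00546), Gzmc by 0.70 ± 0.17 (SE, adjusted p = 0.00631) and Gzma by 0.58 ± 0.09 (SE, adjusted p = 0.000333). Each was lower in 4 of 4 contexts. The fall of Gzmb in the sample channel was larger, at -2.32 ± 0.14 (SE), from -1.93 to -2.80, where 50.8% of genes were called. The fall of Nkg7 in that channel was smaller and not called, at -0.65 ± 0.31 (SE), with -0.97 and -2.02 in Th1 and 0.10 and 0.27 in Th2 cells. Its second probe gave -0.47 by ratio (adjusted p = 0.0553) and -1.24 in the sample channel, the latter called, so the probes differed in which scale gave a call. All 5 calls held without any single array of the fit. By the scanner software's log ratio, however, Gzmb was at 0.10 (adjusted p = 0.704) and not called. With no context block 1 of the 7 was called, as were 901 of the 12919 genes, and at 50 nM none of the 7 was, where 44 genes were. Markers were called lower as well, 5 of 5 of T cells, 4 of 5 of naive T cells, both of CD8 T cells, 2 of 4 of B cells, 1 of 3 tested of NK cells and the 1 tested of mast cells, while 1 of 3 tested myeloid markers was called higher. Cd8a was at -0.53, Cd8b1 at -0.33 and Klrd1 at -1.21, and the part of such cells was not tested.

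The genes of perforin and granzyme K were not called. Gzmk differed by 0.06 ± 0.09 (SE, adjusted p = 0.588). Prf1 differed by -0.06 ± 0.26 (SE, adjusted p = 0.867), with -0.17 and -1.29 in unstimulated and reactivated Th1 cells and 0.63 and 0.58 in Th2 cells. The difference of the effect between Th1 and Th2 cells was -1.34 ± 0.34 for Prf1 (SE, adjusted p = 0.409). No gene of 12919 (0%) was called in that contrast by limma, and 907 genes, 3 of the 7 among them, had an unadjusted p below 0.05. The sample channel gave no call either. The slide changed with the drug in Th2 cells alone, so cell type and slide cannot be told apart in this contrast.

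**Figure D3:**
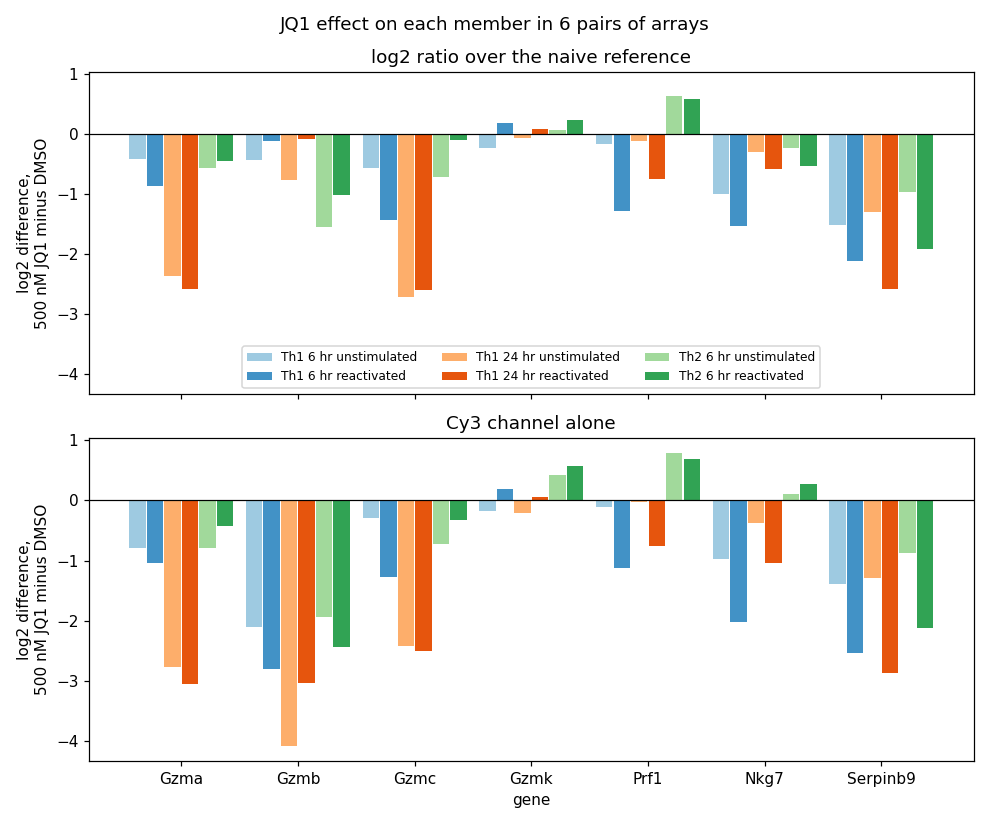
Log2 difference of 500 nM JQ1 minus DMSO (y axis) for the 7 genes (x axis) in 6 pairs of arrays, each bar 1 pair, as ratios over the naive reference (top) and in the sample channel alone (bottom). The bars of Gzma reach -2.59 at 24 hr in the top panel, those of Gzmb reach -4.09 in the bottom panel, and those of Prf1 point up in Th2 cells.

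The Th1 cells could be followed with drug and vehicle on the same slide at both times. Over these 4 pairs Serpinb9 fell by 1.88 ± 0.20 (SE, adjusted p = 0.000675), Gzmc by 1.83 ± 0.33 (SE, adjusted p = 0.00484), Gzma by 1.56 ± 0.34 (SE, adjusted p = 0.0111) and Nkg7 by 0.86 ± 0.19 (SE, adjusted p = 0.0116). That is 4 of 7 genes, where 34.2% of 12540 genes were called and 21.1% were called lower. The second Nkg7 probe was at 0.04 as a ratio (adjusted p = 0.834) and at -1.16 in the sample channel, which was called. Only 0.367% of genes had a lower value than Gzmc and 0.718% a lower value than Gzma. Prf1 was at -0.58 (adjusted p = 0.051), and was called without either unstimulated array of the 24 hr pair (-0.74, adjusted p 0.0458 to 0.0461). Gzmb was lower in 4 of 4 pairs, by -0.35 ± 0.14 as a ratio (SE, adjusted p = 0.0805) and by -3.01 ± 0.28 in the sample channel, the latter called, as were 34.3% of genes on that scale. By the scanner software's log ratio Gzmb was at 0.43 (adjusted p = 0.0531), not called.

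Gzma and Gzmc had larger differences at 24 hr. Gzma differed by -0.42 and -0.87 in unstimulated and reactivated cells at 6 hr and by -2.37 and -2.59 at 24 hr. Gzmc differed by -0.57 and -1.43 at 6 hr and by -2.72 and -2.60 at 24 hr, where its ratios of -0.61 and -0.23 were below the naive level. Nkg7 had the larger difference at 6 hr, with -0.997 and -1.54 against -0.31 and -0.58. In a contrast chosen after these values were seen, the effect at 24 hr minus that at 6 hr was -1.83 ± 0.24 for Gzma (SE, adjusted p = 0.451), -1.67 ± 0.32 for Gzmc (SE, adjusted p = 0.827) and 0.83 ± 0.26 for Nkg7 (SE, adjusted p = 0.948). No gene of 12540 was called by limma, and 602 had an unadjusted p below 0.05. The 6 and 24 hr pairs were on different slides, so time and slide cannot be told apart.

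Other genes of the programme were read in the same Th1 pairs, where 21.1% of all genes were called lower and 13.1% higher. Of 12 genes of granule release 5 fell and none rose, among them Unc13d by 1.59, Vamp8 by 1.44, Rab27a by 1.03 and Stx11 by 0.88. Of the 4 death ligands 3 fell, Fasl by 2.04, Lta by 0.97 and Tnfsf10 by 0.87. Of 12 transcription factors 3 fell, Zeb2 by 1.47, Stat4 by 1.38 and Runx1 by 0.59, while Tbx21 was at -0.13 (adjusted p = 0.549). In granule cargo and processing 3 of 14 tested fell and 2 rose, with Serpinb6b at -2.11, Cst7, a cathepsin inhibitor, at -1.72, and Ctsl and Ctsd higher by 2.07 and 0.48. The shares for transcription factors and for cargo were near that of all genes. Markers of other cells fell too, Klrd1 by 2.15, Cd8a by 0.97 and Cd8b1 by 0.59, as did 3 of 5 T cell markers, 2 of 3 tested B cell markers and the 1 mast cell marker tested, and their part in the result was not tested.

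Reactivation left less of a rise in Serpinb9 under JQ1. At 500 nM and 6 hr its rise was 0.60 in Th1 and 0.15 in Th2 cells, against 1.19 and 1.096 with DMSO. The effect of JQ1 was more negative in reactivated cells by -0.77 ± 0.20 (SE, adjusted p = 0.0381), in a contrast that called 10.1% of 12919 genes. The direction was the same without each single array, at -0.50 to -1.03, but the call was lost without 11 of the 12 arrays of the fit (adjusted p 0.0517 to 0.164), all but the unstimulated Th1 array with 500 nM JQ1. The other 6 genes were not called.

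Flavopiridol was compared with DMSO at 10 µM for 6 hr. No Flavopiridol array shared a slide with its own control, so drug and slide cannot be told apart in any 1 context. Loess sets the bulk of the genes on an array near 0, so the values below are relative to that bulk. On that scale 5 of 7 genes were higher and none lower, where 48.9% of 12458 genes were called and 15.4% were higher. Fewer of the 7 were called with slide as a random block or on the 8 arrays of 10 µM and DMSO alone. Over all genes these settings called 4194 and 4503, against 6091.

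Gzmc had the largest rise of the 7 by ratio. It was 1.95 and 1.98 in unstimulated and reactivated Th1 cells with DMSO and 3.51 and 3.38 with 10 µM Flavopiridol, and -0.03 and -0.03 in Th2 cells with DMSO and 2.68 and 2.70 with the drug. All 4 treated arrays lay above all 4 controls, and the difference was 2.10 ± 0.29 (SE, adjusted p = 0.000472), above 99.7% of genes tested. Gzma rose by 1.101 ± 0.179 (SE, adjusted p = 0.00116), with 0.95 and 0.74 in Th1 and 1.39 and 1.33 in Th2 cells. These 2 calls held without each single array.

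Prf1, Gzmb and Gzmk were called with less margin. Prf1 rose by 1.28 ± 0.43 (SE, adjusted p = 0.0353), with 1.39 and -0.45 in unstimulated and reactivated Th1 cells and 2.23 and 1.93 in Th2 cells. Gzmb rose by 1.01 ± 0.32 (SE, adjusted p = 0.0291), and in the sample channel, where 49.9% of genes were called, by 2.63 ± 0.45, from 1.26 to 4.10. Gzmk rose by 0.39 ± 0.12 (SE, adjusted p = 0.0258). The call of Prf1 was lost without any of 7 arrays, which were the unstimulated Th1 and both Th2 DMSO arrays, the unstimulated Th1 arrays with 1 and with 10 µM, and both Th2 arrays with 10 µM (0.94 to 1.28, adjusted p 0.051 to 0.102). That of Gzmb was lost without either Th2 DMSO array, the unstimulated Th1 array with 10 µM or either Th2 array with 10 µM (0.66 to 1.04, adjusted p 0.0619 to 0.0974), and the lowest value was the one without the unstimulated Th2 DMSO array. That of Gzmk was lost without either reactivated DMSO array, either Th1 array with 10 µM or the reactivated Th2 array with 10 µM (0.30 to 0.41, adjusted p 0.0527 to 0.0983).

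Nkg7 and Serpinb9 were not called. Nkg7 was at 0.62 ± 0.27 (SE, adjusted p = 0.0891), with 1.24 and -0.43 in Th1 and 0.96 and 0.72 in Th2 cells, and passed the threshold without the reactivated Th1 DMSO array (0.98, adjusted p = 0.00139). Nkg7 was called higher in the sample channel, at 1.23 ± 0.35 (SE), while its second probe was called on neither scale (0.52 by ratio and 0.64 in the sample channel). Serpinb9 was the gene with a negative mean, -0.61 ± 0.26 (SE, adjusted p = 0.0875), and was called lower without the unstimulated Th1 DMSO array (-0.82, adjusted p = 0.0345) or the unstimulated Th2 DMSO array (-0.81, adjusted p = 0.0347). At 1 µM Gzmc was at 3.44 and 2.97 in Th1 and 2.76 and 2.29 in Th2 cells. The differences from DMSO at that dose were 1.90 for Gzmc, 1.19 for Prf1, 0.87 for Gzma, 0.84 for Gzmb, 0.46 for Nkg7, 0.42 for Gzmk and -0.47 for Serpinb9. There 4 of 7 genes were called higher, and 6438 of 12458 genes were called in either direction. The share of all genes called higher at that dose is not given, so the 2 counts are not alike.

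The sign of these effects depended on the scale. Spike-in RNA of 10 transcripts, added at labelling, gave another zero. When arrays were centred on the spike-ins, the median of all genes was -1.66 in place of -0.22, Gzma was at -0.67, Gzmb at -0.65, Gzmk at -0.95, Prf1 at -0.69 and Nkg7 at -1.02, and only Gzmc stayed above 0, at 0.19. With the sample channel scaled on spike-ins, Gzmb was at 0.87 and Gzmc at 0.27, while Gzma was at -0.54 and Prf1 at -0.39. Relative to the median of all genes the signs held. A shift of whole arrays cannot change these distances, so the spike-in shift repeats loess and spike-in centring repeats median centring. In all 8 normalizations compared, Gzma was above that median by 0.99 to 1.71, Gzmb by 0.98 to 2.87, Gzmc by 1.86 to 3.11, Prf1 by 0.98 to 2.07, Nkg7 by 0.64 to 1.42 and Gzmk by 0.62 to 1.13. Serpinb9 was below it in all 8, by -0.38 to -0.74. Against 0 it was called lower in 4 of the 8, at -1.46 with median centring, -2.06 with spike-in centring, -1.39 with a spike-in shift and -2.26 with the sample channel scaled on spike-ins, and its adjusted p over the 8 ran from 0.00016 to 0.0875.

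**Figure D4:**
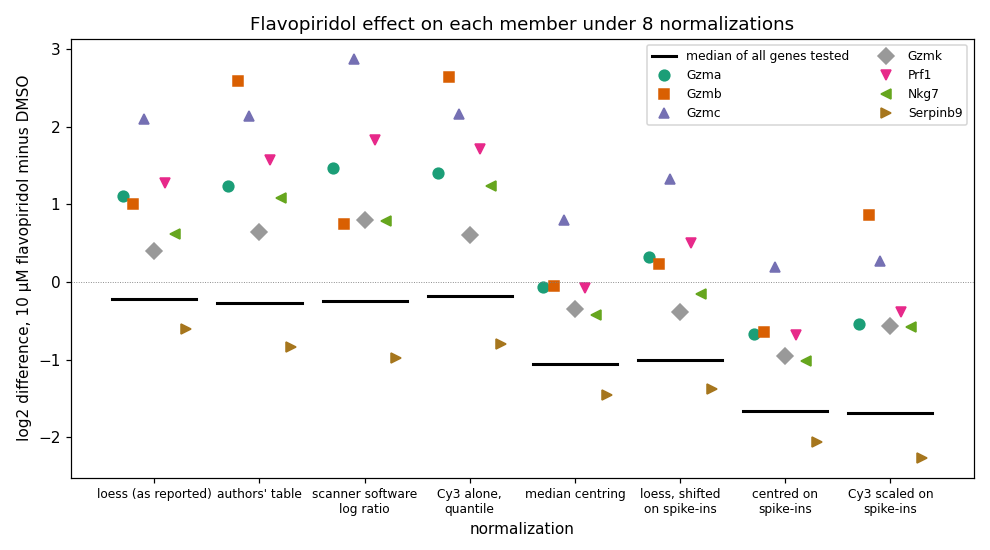
Log2 difference of 10 µM Flavopiridol minus DMSO (y axis) for the 7 genes under 8 normalizations (x axis), with the median of all genes tested as a black bar. The genes other than Serpinb9 lie above the bar in every column, while their position against 0 moves, Gzma from 1.47 to -0.67. Columns that differ only by a shift of whole arrays show the same distances from the bar.

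With 10 µM Flavopiridol, the members called on reactivation had differences near or below 0 between reactivated and unstimulated cells. At 10 µM the reactivated minus unstimulated difference was -0.15 in Th1 and -0.08 in Th2 cells for Serpinb9, 0.00 and -0.02 for Nkg7, and -0.41 and -0.18 for Prf1. In the sample channel it was -0.09 and -0.14 for Gzmb. The difference of the drug effect between reactivated and unstimulated cells was -1.26 ± 0.20 for Serpinb9 (SE, adjusted p = 0.00941), in a contrast that called 15.8% of 12458 genes. It was lost without any of the 4 arrays with 10 µM (-1.19 to -1.33, adjusted p 0.0554 to 0.063). Prf1 was at -1.07 (adjusted p = 0.434) and Nkg7 at -0.96 (adjusted p = 0.189), and both were called without the reactivated Th2 DMSO array (-2.27, adjusted p = 0.0205, and -1.57, adjusted p = 0.0151). In the sample channel Gzmb was called as well, at -2.06, where 15.3% of genes were. The effect of Flavopiridol in Th1 minus that in Th2 cells was -1.38 for Gzmb, -1.25 for Gzmc and -1.61 for Prf1, none of them called (adjusted p 0.203 to 0.359), where 0.0161% of genes were. That of Gzmb was -0.77 ± 0.98 (SE) in the sample channel, not called.

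Other genes of the programme went both ways under Flavopiridol on this scale, where 33.5% of all genes were called lower and 15.4% higher. Of 12 transcription factors 7 fell and 1 rose. Id2 fell by 3.79, Bhlhe40 by 3.67, Tbx21 by 3.11 and Zeb2 by 3.08. Of the 4 death ligands 3 fell and none rose, with Fasl at -2.70 and Tnf at -1.96. In granule release 5 rose and 4 fell, among them Sytl1 higher by 1.14, Unc13d higher by 1.12, Snap23 at -1.72 and Stx11 at -3.03. In cargo and processing 4 rose and 1 fell, with Ctsw higher by 2.01, Cst7 higher by 1.79, Ctsd higher by 1.20 and Serpinb6b at -2.61. Cd8b1 and Klrd1 rose by 1.11 and 0.91, Cd8a was at 0.49 (adjusted p = 0.104), and the other 2 NK cell markers tested were not called. Of the T cell markers 2 of 5 rose and 1 fell, and 2 of 4 B cell markers and the 1 mast cell marker tested fell. The part of such cells was not tested. Gzme and Gzmm were at -0.44 and -0.21, neither of them called.

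Across the 24 arrays, other genes followed the members in log2 ratio. The 3 genes with the highest Pearson r out of 8811 were Ifitm3 (0.988), Ly6c1 (0.962) and Trp53 (0.924) for Gzma, and S100a4 (0.967), Ifitm2 (0.945) and Gnb1 (0.934) for Gzmc. They were Jaml (0.954), H2-Q8 (0.925) and Sestd1 (0.919) for Nkg7, and Zfp609 (0.942), Nf1 (0.901) and Msi1 (0.883) for Prf1. For Gzmb, whose ratio carries its moving reference, they were Il2ra (0.893), Dad1 (0.876) and Mif (0.873). For Gzmk they were Stk26 (0.91), Tbca (0.899) and Ly6k (0.883). For Serpinb9, over 23 arrays, they were Btla (0.931), Slc16a6 (0.907) and Ccdc50 (0.906). Among the members, Gzma and Gzmc were the pair most alike, at 0.868, and Gzmk and Serpinb9 the least, at 0.165, by ratio. In the sample channel Gzmb and Gzmc had the highest value, 0.906 against 0.741 by ratio, and Gzma and Gzmc were at 0.885. The arrays share their cell type, drug and reference, so these values are descriptions.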

How the data were processed

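Expression was measured in 24 samples, 1 array each. Groups were taken from the labels. The deposited scanner files held the spot and background intensity (medians) of both channels from Agilent Feature Extraction 10.7.1.1, and that software's log10 ratio. The authors also deposited log2 ratios for 34710 probes, normalization not stated, which followed the values here (r 0.981 to 0.996, slope 0.967 to 1.035, medians -0.02 to 0.01).

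Intensities were corrected with normexp (offset 50) and loess in limma 3.58.1 (R 4.3.3) and turned to Cy3 over Cy5. Control spots (62976 spots, 59305 not controls) and 234 to 331 flagged spots per array were left out, spots of a probe were averaged, and the brightest probe stood for a gene. Names came from the files and RefSeq (GRCm38.p6). Dyes were not swapped, so dye bias remains.

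Genes well above background in Cy3 on at least 3 arrays of a fit entered lmFit and eBayes, with Benjamini-Hochberg adjustment over all genes and calls at an adjusted p below 0.05. Pairs or cell contexts were blocks and stood in for replicates. Fits were tested on simulated data. The number of arrays limits precision. Reference channels differed between arrays with an SD of 0.19 (log2, 276 pairs).

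The members and lists were chosen with earlier results of these data known, and all 7 members are named. From other lists, called genes of large effect are named, up to 4 per list, and markers, Tbx21 under JQ1 and Gzme and Gzmm where not called were added after their values were seen. Means of spots were planned and medians used.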

Additional observations from a re-analysis of the deposited data

Results flagged for a closer look

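Effects that differed between conditions by a test of the difference itself were found by ratio for 2 of the 7 genes, 1 gene in each of 3 contrasts. Over all genes 5.28% were called for reactivation by cell type, 15.8% for Flavopiridol by reactivation and 10.1% for JQ1 by reactivation, so 1 of 7 is near the share of all genes in the latter 2. In the sample channel the reactivation difference between cell types was also called for Gzma, at -0.71, and the Flavopiridol difference by reactivation for Gzmb, at -2.06. The rise of Nkg7 on reactivation was larger in Th1 than in Th2 cells by 1.22 (log2), with all 5 Th1 pairs above all 3 Th2 pairs, and it was not called without either Th2 array with 50 nM JQ1. The spike-in scalings, the software's ratio and the mean of all probes also gave no call for Nkg7. The effect of 10 µM Flavopiridol on Serpinb9 was more negative in reactivated than in unstimulated cells by -1.26, with -1.27 and -1.20 in reactivated and 0.07 and -0.02 in unstimulated Th1 and Th2 cells. The effect of 500 nM JQ1 on Serpinb9 was more negative in reactivated cells by -0.77, with -2.11 and -1.91 against -1.52 and -0.97. That call was lost without 11 of the 12 arrays of its fit, and the one with Flavopiridol without any of the 4 arrays with 10 µM. The contrasts with Flavopiridol and with JQ1 share their DMSO arrays.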

How the results depend on the processing

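The labels gave no replicate numbers, so the pairs and contexts used as blocks are arrays of matching condition. Counts are of the 7 genes called, against 4 for naive cells, 3 for reactivation, 4 for Th1 against Th2 cells, 5 for either drug, 4 for JQ1 within slides and 1 for each of 3 differences of effects. Leaving out each array in turn gave 2 to 5 for naive cells, 1 to 3 for reactivation, 4 for Th1 against Th2 cells, 2 to 5 for Flavopiridol, 5 for JQ1 and 4 to 5 within slides. It gave 0 to 2 for reactivation by cell type, 0 to 3 for Flavopiridol by reactivation, 0 to 1 for JQ1 by reactivation and 0 for both drug effects by cell type.

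Reactivation called 1 gene with no pair block. The JQ1 comparison called 0 genes at 50 nM and 1 with no context block. Flavopiridol called 3 genes with median centring (1 higher, 2 lower), 2 with a spike-in shift after loess, 2 with the sample channel scaled on spike-ins, 2 with slide as a random block, 2 on the 8 arrays of 10 µM and DMSO, and 1 in Th1 contexts alone. With spike-in centring it called 5, all lower. Reactivation by cell type called 0 with spike-in centring, a spike-in shift, the software's ratio, the sample channel scaled on spike-ins or the mean of all probes, and 2 with the sample channel alone or the authors' table. Flavopiridol by reactivation called 0 with spike-in centring, a spike-in shift, the software's ratio or genes above background on all arrays, and 2 with the sample channel alone, the authors' table or the mean of probes. JQ1 by reactivation called 2 with median centring, 5 with spike-in centring, 6 with a spike-in shift, 6 with the sample channel scaled on spike-ins, and 0 with an offset of 16 or the software's ratio. The other counts stayed within 1.5 times.

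Signs reversed in 18 cases with the value called on at least 1 of the 2 settings, and other sign changes were between values not called. For Flavopiridol, median centring gave Gzma -0.066, Gzmb -0.047, Gzmk -0.35 and Prf1 -0.084. Spike-in centring gave Gzma -0.67, Gzmb -0.65, Gzmk -0.95, Prf1 -0.69 and Nkg7 -1.02. The spike-in shift gave Gzmk -0.38, and the sample channel scaled on spike-ins gave Gzma -0.54, Gzmk -0.56 and Prf1 -0.39. Gzmk against naive cells was -0.37 with median centring. Gzmb was 0.10 for JQ1 by the software's ratio and -0.80 for Th1 against Th2 cells on the 8 Flavopiridol arrays. For JQ1 by reactivation, Gzmk was -0.92 with the spike-in shift and Gzmb -1.74 with the sample channel scaled on spike-ins. The cause was not tested.

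Over all genes, the spike-in settings moved the counts called to 11404 and 11178 from 6091 for Flavopiridol, to 1248 to 1481 from 4674 for Th1 against Th2 cells, to 1724 to 1824 from 4286 within slides, to 89 to 111 from 694 for reactivation by cell type, to 138 to 303 from 1972 for Flavopiridol by reactivation, to 456 to 1965 from 2 by cell type, and to 9349 to 11077 from 1306 for JQ1 by reactivation. JQ1 against DMSO called 6147, 44 at 50 nM, 901 with no context block and 2888 in Th1 contexts alone. The settings in Th1 contexts alone and with the sample channel scaled on spike-ins were chosen after seeing the data. The number of arrays and the moving reference channel of Gzmb limit these results.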

Other observations

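Gzmm, a granzyme outside the members, was well above background on all 24 arrays. Its log2 ratio was 1.18 and 1.103 in unstimulated and reactivated 6 hr Th1 cells with DMSO and 0.00 and -0.35 in Th2 cells. On the reactivated Th2 array with 1 µM Flavopiridol it was 2.50, the highest of the 24, against 0.31 on the reactivated Th2 array with 10 µM. Gzme, of the cluster around Gzmb, was well above background on 9 arrays, all of Th1 cells, at 0.95 to 1.35 on the 4 Th1 arrays with DMSO. On the 4 Th1 arrays with 500 nM JQ1 it was at 0.06 to 0.69, and well above background on 1 of them. Gzmd and Gzmn were not well above background on any array, and Gzmf and Gzmg were on 2 arrays each.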
